A study of Mus musculus with 12 samples.

Results

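Tubulins, kinesins, cytoplasmic dyneins with their activator dynactin, and neurofilaments were followed through laser-captured neurons of 2 neighbouring parts of the mouse entorhinal cortex. The members were the probes whose gene name in the deposited scanner files begins with Tuba, Tubb, Tubg, Dync, Dynl, Dctn or Nef (l, m, h or 3), or with Kif or Klc and a digit. They were 148 of the 41174 probes on the array and stood for 75 genes by the array's names. The rule itself uses no measured value, but it was chosen with earlier results of these data known. A region and genotype has 6 readings, and a probe entered the analysis if the scanner software called at least 4 of them well above background. This kept 65 member probes of 47 genes, among 12987 probes in all. Of the 83 member probes below that limit, 13 were never well above background in any reading.

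Microtubules are hollow polymers of alpha and beta tubulin, nucleated at ring complexes that hold gamma tubulin. Kinesins walk along them mostly outward into the axon, and cytoplasmic dynein, held to its cargo by dynactin, walks back toward the cell body. Neurofilaments are the intermediate filaments of mature neurons, built of a light, a medium and a heavy chain, and they fill and widen long axons. Lysosomes and late endosomes, the compartments that swell when a lysosomal enzyme is missing, are among the cargoes of these motors.

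The mutant group was Naglu-/- and the control group Naglu+/-, so that the controls also carry 1 mutant allele. Naglu encodes a lysosomal hydrolase of heparan sulfate, and its loss in mice is used as a model of Sanfilippo syndrome type B. All animals were female C57BL/6 littermates aged 2 months. From each animal used for a region, 500 Nissl-stained neuronal cell bodies were captured from 12 µm sections, and their RNA was amplified. The regions were the medial (MEC) and the lateral (LEC) entorhinal cortex. There were 6 pairs of littermate samples, 3 for MEC and 3 for LEC. Each put mutant against control RNA on an array in 2 dyes and again with the dyes exchanged, which gave 12 arrays. The labels do not say whether the MEC and LEC pairs of 1 number came from the same animals.

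Several facts of the arrays bear on all that follows. All MEC arrays were scanned on 1 day and all LEC arrays on another, so region and scan day cannot be told apart. The authors' value table places 5 of the 6 LEC scanner files under other LEC samples and runs replicate 2 of both regions, 4 arrays in all, against the labelled dyes. That table matched 1 scanner file to each of the 12 samples with correlations of 0.998 to 0.999 in size, and its assignment is used here. The direction of replicate 2 is not settled by this, and mutant results are therefore given with replicate 2 turned as labelled too. The level of a region, which averages both genotypes, does not depend on the direction. Naglu itself gave no check of the genotypes, since 1 of its probes was above background in 0 of 24 readings and the other was below the limit for analysis. In Cy3 48.2% to 67.9% of an array's spots cleared background, and in Cy5 14.8% to 30.4%. Markers of other cells were measured beside neuronal ones. The limit was passed by 10 of 19 probes for excitatory neurons, 10 of 14 for inhibitory neurons, 11 of 24 for astrocytes, 12 of 21 for microglia, 10 of 26 for oligodendrocytes and 0 of 14 for dividing cells.

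The first comparison asked where the level of a member, averaged over mutant and control, differed between MEC and LEC. Neurofilament light and heavy chain were higher in MEC, together with the neuronal tubulin Tubb3, the motor Kif1b and chains of dynein, while Tubb2a and Tubb2b were higher in LEC with the kinesin light chains Klc2 and Klc3. Of the 65 members, 19 passed limma at an adjusted p of 0.05 over all 12987 probes, 11 higher in MEC and 8 higher in LEC. That is 29.2% of the members, where 24.3% of all probes passed. Higher in MEC were 16.9% of members against 11.4% of all probes, and higher in LEC 12.3% against 12.9%. The 3 pairs of 1 region all lay above those of the other in 30 members, or 46.2%, where 42.7% of all probes did so. The shares of members therefore lay near the background of this array, and the median difference was 0.0036 on the log2 scale over the members and −0.014 over all probes. A fold is given as the higher region over the lower, and an error as SE of the log2 difference with n = 3 pairs a region.

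The split of calls depends on how arrays were scaled to each other. Levels were quantile normalised between arrays. With median centring in its place, 42 members passed, 5 higher in MEC and 37 higher in LEC, and the median difference over all probes moved from −0.014 to −0.17. Among the 3247 probes with the highest levels, which held 29 of the 65 members, the median of all probes moved from 0.0042 to −0.49. A member of that group near −0.49 under median centring therefore lies near the middle of the group. Levels in the group ran from 7.06 to 15.34 (log2), and its median was not resolved further by level. Of the 11 probes higher in MEC, the 4 of Nefl and Nefh, Kif1b and Dync1i1 stayed above 0 under median centring, and Tubb3, Dync1li2, Tuba4a, Tubgcp3 and 1 Dynll2 probe did not. All 8 higher in LEC stayed below 0, but median centring moved the median of all probes in that same direction. Their staying below 0 is therefore no test of these 8 calls. The number of calls also fell when a single channel, control or mutant, was used. Which channel of replicate 2 is the mutant follows the value table's direction, which is not settled. The single-channel fits were not run with that replicate turned. From the control channel alone 6 members passed, the 2 probes each of Nefl and Tubb2a, the first Nefh probe and Tubb2b. From the mutant channel alone 5 passed, both Nefl probes, the first Nefh probe, 1 Tubb2a probe and Dync1li2, so that the calls of the other genes below rest on both channels.

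The background correction and the dye also moved values. With the scanner's own background-corrected signals the log2 difference grew to over 1.5 times its size in Kif1b (0.73), Tubb3 (0.67), Dynll2 by its probe higher in MEC (0.56), Dync1li2 (0.45), Tubgcp3 (0.37), Klc2 (−0.56), Klc3 (−0.44) and Dctn4 (−0.41), each of which still passed. Tuba4a (0.31, adjusted p = 0.0925) and the Dynll2 probe higher in LEC (−0.25, adjusted p = 0.138) did not pass with these signals. With Cy3 alone Dync1i1 (0.16, adjusted p = 0.0804), Dync1li2 (0.14, adjusted p = 0.349), the Dynll2 probe higher in MEC (0.15, adjusted p = 0.122), Dctn4 (−0.18, adjusted p = 0.0818) and the second Nefh probe (0.09, adjusted p = 0.371) lost their pass. With Cy5 alone Tubgcp3 (adjusted p = 0.0559), Kif3c (adjusted p = 0.0841) and Tuba4a (adjusted p = 0.0748) did. Klc2 and Klc3 passed with neither dye alone.

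All 3 neurofilament chains were measured, by 5 probes. Nefl, the light chain on which the filament is assembled, had levels of 8.93, 8.80 and 9.03 (log2) in the MEC pairs and 7.72, 7.77 and 7.73 in the LEC pairs by the probe at chr14:67042139-67042198 (mm8). Every MEC pair stood about a full log2 unit above every LEC pair. The difference was 1.18 (SE 0.06), or 2.27-fold (adjusted p = 0.000112 by limma), the largest among the 65 members. The second Nefl probe, at chr14:67040911-67040971, read 8.16, 8.08 and 8.31 in MEC and 7.17, 7.34 and 7.32 in LEC. Its groups did not overlap either, with a difference of 0.90 (SE 0.07) and an adjusted p of 0.000513 by limma.

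Nefh is the heavy chain, whose long phosphorylated tail projects from the filament. Its probe at chr11:4838918-4838977 read 7.30, 7.29 and 7.07 in MEC and 6.42, 6.34 and 6.36 in LEC, so that each MEC pair exceeded each LEC pair. The difference was 0.85 (SE 0.07), or 1.80-fold (adjusted p = 0.000513 by limma), and 2.90-fold with the scanner's own background-corrected signals. The other Nefh probe, at chr11:4839629-4839688, lay close to background, with 10 of 12 MEC and 6 of 12 LEC readings well above it. It differed by 0.23 (SE 0.05, adjusted p = 0.0174 by limma), and without LEC replicate 2 it no longer passed (0.23, adjusted p = 0.0574). With the scanner's own signals it read 0.78 and passed. Nefm, the medium chain, was well above background in 6 of 12 MEC and 2 of 12 LEC readings. Its levels of 6.13, 6.06 and 6.02 in MEC and 5.93, 5.92 and 5.94 in LEC did not overlap, but the difference of 0.14 (SE 0.05) did not pass (adjusted p = 0.0588). It passed in 4 of 17 settings, among them the scanner's own signals, by which Nefm was higher in MEC by 0.53 or 1.44-fold (adjusted p = 0.0204 by limma).

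The Nefl and Nefh differences kept their direction and their pass in each setting tried for these 3 probes. Both Nefl probes and the first Nefh probe passed in all 18, 17 and 18 settings in which they were measured, including either dye alone, the control or the mutant channel alone, and the omission of each pair in turn. Under median centring they read 0.64, 0.42 and 0.56, where the median of all probes was below 0. In captured tissue more cells of a type and more RNA per cell cannot be told apart.

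Markers of cell types moved between the regions as well. Of 10 oligodendrocyte marker probes analysed, 5 were higher in MEC and 2 higher in LEC. Among them, 2 probes of Mbp, a myelin protein, passed in opposite directions at 1.06 and −0.96. The summed level of this list was 1552 to 1953 intensity units in the MEC pairs and 1172 to 1389 in the LEC pairs, so that the regions did not overlap. The summed level of the excitatory neuron markers was 2181 to 3093 in MEC and 3477 to 4294 in LEC, but of these 10 probes 1 passed in each direction, Neurod6 at 1.16 and Nrgn, the brightest of them, at −1.16, and their median difference was −0.014. Of 10 probes for inhibitory neurons 3 were higher in MEC, those of Pvalb (0.55), Slc32a1 (0.44) and 1 of Gad1 (0.31), and 1 was higher in LEC, that of Sst (−0.86). The part of these cell types in the neurofilament and tubulin differences was not tested.

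The alpha and beta tubulins, which pair into the building block of the microtubule, were measured by more than 1 gene each. Among 7 beta tubulin probes 1 was higher in MEC and 3 were higher in LEC, and among 8 alpha tubulin probes 1 was higher in MEC and 0 in LEC. Tubb2a, a beta tubulin abundant in brain, read 11.42, 11.68 and 11.54 in MEC and 12.28, 12.21 and 12.25 in LEC by the probe whose position in the files is chr13:34081725-34081754 (mm8). All LEC pairs were higher, by 0.70 (SE 0.07) or 1.62-fold (adjusted p = 0.000794 by limma). A second Tubb2a probe, at chr13:34082007-34082066, read 9.72, 9.80 and 9.56 in MEC and 10.37, 10.34 and 10.40 in LEC. It gave the same order at 1.60-fold (adjusted p = 0.000746 by limma).

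Tubb2b lies beside Tubb2a on chromosome 13 and encodes a beta tubulin of almost the same sequence, known from migrating cortical neurons. It read 8.49, 8.62 and 8.46 in MEC and 9.27, 9.46 and 9.01 in LEC (probe at chr13:34134657-34134716, mm8). The LEC level was 1.65-fold higher (log2 difference −0.73, SE 0.11, adjusted p = 0.00323 by limma). Transcripts this similar can bind each other's probes, and how far the Tubb2a and Tubb2b probes separate the genes is not known here. In the mutant channel alone Tubb2b and the first Tubb2a probe no longer passed, with adjusted p of 0.0651 and 0.0511 by limma. In every other setting tried these 3 probes passed, and with median centring they read −1.31, −1.22 and −1.28. That scaling moved the median of the 3247 probes with the highest levels, these 3 among them, to −0.49.

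Tubb3, the beta tubulin that marks neurons, ran the other way. It stood at 7.41, 7.45 and 7.70 in the MEC pairs and at 7.07, 7.03 and 7.19 in the LEC pairs (probe at chr8:126307891-126307950, mm8), with no overlap. The difference of 0.42 (SE 0.08), or 1.34-fold, passed (adjusted p = 0.00913 by limma), but it stood at −0.0066 with median centring. Tuba4a, an alpha tubulin, read 8.25, 8.32 and 8.22 in MEC and 7.97, 7.91 and 8.11 in LEC. It passed at 0.26 (SE 0.06, adjusted p = 0.0174 by limma), with −0.27 under median centring, while its second probe read 0.0036. The call of Tuba4a was lost without MEC replicate 1 (0.27, adjusted p = 0.0539), MEC replicate 2 (0.24, adjusted p = 0.0648) or LEC replicate 2 (0.22, adjusted p = 0.0647).

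Tuba1a, the main alpha tubulin of developing neurons, read 12.24, 12.96 and 12.73 in MEC against 13.10, 13.10 and 13.15 in LEC. Its pairs did not overlap, but the MEC pairs spread widely (SD 0.37, n = 3) and the difference of −0.47 (SE 0.16) did not pass (adjusted p = 0.0615). It passed in 6 of 18 settings, among them Cy3 alone (−0.64, adjusted p = 0.00775), Cy5 alone (−0.45, adjusted p = 0.0228) and the omission of MEC replicate 2 (−0.63, adjusted p = 0.0251). The 2 probes of Tubb5, a tubulin of many cell types, read 0.06 and −0.05, neither of which passed. Of the gamma tubulin ring, Tubgcp3, a subunit of the nucleating complex, was higher in MEC by 0.19 (SE 0.05, adjusted p = 0.0234 by limma), with −0.16 under median centring. Its MEC pairs stood at 7.01, 6.95 and 7.02 and its LEC pairs at 6.84, 6.77 and 6.82. It was lost without MEC replicate 1 (0.18, adjusted p = 0.066), MEC replicate 3 (0.17, adjusted p = 0.0642) or LEC replicate 2 (0.16, adjusted p = 0.098). Tubg1 and Tubg2, the gamma tubulins, read 0.01 and −0.07 and did not pass.

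The promoters of the tubulin genes that passed are shown because these genes differed in opposite directions. RefSeq's promoter table (GRCm38.p6) held 3 of the 4 genes, and the 250 bases before the start of the gene are printed 5′ to 3′ on the strand of the gene. Capitals mark the TATA box TATAAA, the CCAAT box, the GC box GGGCGG and the cyclic AMP response element TGACGTCA, searched on both strands. Tubb2a, higher in LEC, lies at chr13:34078009-34078258 on the minus strand, Tubb3, higher in MEC, at chr8:123411303-123411552 on the plus strand, and Tuba4a, higher in MEC, at chr1:75219295-75219544 on the minus strand.
Tubb2a: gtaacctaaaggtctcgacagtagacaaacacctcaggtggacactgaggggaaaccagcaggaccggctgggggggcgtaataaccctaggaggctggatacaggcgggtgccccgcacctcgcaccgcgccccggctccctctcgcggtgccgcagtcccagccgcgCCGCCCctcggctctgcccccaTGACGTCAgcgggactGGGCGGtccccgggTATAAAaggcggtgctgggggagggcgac
Tubb3: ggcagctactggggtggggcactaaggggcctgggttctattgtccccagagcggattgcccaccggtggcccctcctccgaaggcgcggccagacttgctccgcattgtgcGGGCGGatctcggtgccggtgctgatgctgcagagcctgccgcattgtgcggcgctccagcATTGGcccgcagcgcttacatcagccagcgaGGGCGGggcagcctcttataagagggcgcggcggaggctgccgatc
Tuba4a: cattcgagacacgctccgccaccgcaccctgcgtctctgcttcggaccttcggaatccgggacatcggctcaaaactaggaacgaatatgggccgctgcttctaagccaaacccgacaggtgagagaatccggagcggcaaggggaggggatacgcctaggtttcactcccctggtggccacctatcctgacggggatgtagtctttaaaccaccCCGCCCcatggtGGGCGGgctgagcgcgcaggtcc
All 3 windows hold GGGCGG, at 2 places each. Tubb2a alone of the 3 holds TATAAA, 29 to 24 bases before the start, and TGACGTCA, 59 to 52 bases before it. Tubb3 alone holds CCAAT, on the minus strand. Of 32851 promoter windows of this length, 32.7% held GGGCGG, 33.8% CCAAT, 12.4% TATAAA and 1.5% TGACGTCA. Of the 38 windows found for 32 of the 47 analysed member genes, 55.3% held GGGCGG, 42.1% CCAAT, 5.3% TATAAA and 7.9% TGACGTCA. These matches describe letters in the window and not sites at which a factor binds.

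Of 11 analysed probes for kinesins that carry cargo in axons and dendrites, 1 was higher in MEC and 1 higher in LEC. Kif1b, a motor for synaptic vesicle precursors and mitochondria, read 7.26, 7.52 and 7.54 in MEC and 7.12, 6.86 and 6.99 in LEC. These pairs did not overlap, and the difference was 0.45 (SE 0.09), or 1.37-fold (adjusted p = 0.0106 by limma). Under median centring it was 0.05 and did not pass (adjusted p = 0.75). The second Kif1b probe, well above background in 7 of 12 MEC readings, read −0.16 and did not pass (adjusted p = 0.0743). With the scanner's own signals this probe passed at −0.58 (adjusted p = 0.0258) and the first at 0.73 (adjusted p = 0.0124), in opposite directions.

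Kif3c, a subunit of the heterotrimeric kinesin-2 family, was higher in LEC by 1.14-fold, and by 1.48-fold with the scanner's own signals. In MEC, where 6 of 12 readings were well above background, the pairs stood at 6.11, 6.12 and 6.08, and those of LEC at 6.25, 6.33 and 6.32 (log2 difference −0.19, SE 0.05, adjusted p = 0.0179 by limma). It was lost without MEC replicate 3 (−0.18, adjusted p = 0.0506) or LEC replicate 2 (−0.18, adjusted p = 0.0773), and the other Kif3c probe read −0.12 (adjusted p = 0.147).

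Conventional kinesin carries organelles and vesicles, neurofilaments among its cargo, and its 3 heavy chain genes did not pass. Kif5a, the neuronal form, read 11.55, 11.86 and 11.40 in MEC and 11.56, 11.64 and 11.33 in LEC, so that the regions overlapped (0.09, SE 0.12, adjusted p = 0.614). Kif5b, found in most cell types, read 0.17 (SE 0.12) and Kif5c 0.05 (SE 0.07). Under median centring Kif5a read −0.57 and Kif5c −0.52 and passed in that direction, close to the median of −0.49 of those 3247 probes, and Kif5b read −0.36 without a pass. Kif1a, the close relative of Kif1b, gave −0.18 and 0.0060 by its 2 probes, neither of which passed, and −0.76, with a pass, and −0.11 under median centring.

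Kinesin light chains, which link conventional kinesin to its cargo, were lower in MEC by all 3 probes, and 2 of them passed. Klc2 read 6.85, 6.76 and 6.90 in MEC and 7.34, 7.25 and 6.95 in LEC, a 1.27-fold higher LEC level (adjusted p = 0.0343 by limma). Klc3 read 6.63, 6.46 and 6.52 in MEC and 6.68, 6.77 and 6.78 in LEC, 1.15-fold higher in LEC (adjusted p = 0.0364 by limma). Klc4 read −0.11 and did not pass. Both calls were lost when single pairs were left out. Klc2 no longer passed without MEC replicate 1 (adjusted p = 0.0965), MEC replicate 2 (adjusted p = 0.113), MEC replicate 3 (adjusted p = 0.0624), LEC replicate 1 (adjusted p = 0.0868) or LEC replicate 2 (adjusted p = 0.103). Klc3 no longer passed without MEC replicate 2 (adjusted p = 0.114), MEC replicate 3 (adjusted p = 0.0919), LEC replicate 2 (adjusted p = 0.115) or LEC replicate 3 (adjusted p = 0.0859). Klc1, the remaining light chain, stands on the array under the older name Kns2 and so lies outside the rule. It was 0.37 lower in MEC (−0.37, SE 0.06, adjusted p = 0.00399 by limma).

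Most other kinesins were at or below background. Of 20 probes for kinesins of cell division, such as Kif11 of the mitotic spindle, 1 was analysed, that of Kif22, with a difference of 0.01, and −0.27 with a pass under median centring. For kinesins of microtubule ends and cilia 3 of 10 probes were analysed, and the 2 probes of Kif2a, which shortens microtubules from their ends, read −0.10 and −0.05. None of these passed as reported. Kif3a, Kif3b, Kif13a, Kif13b, Kif16b, Kif17 and Kif21a had no probe above the limit.

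Cytoplasmic dynein is a complex of a heavy motor chain and smaller chains that bind cargo adaptors. Of 6 probes for the heavy, intermediate and light intermediate chains, 2 were higher in MEC and 0 in LEC. Dync1i1, the neuronal intermediate chain, read 6.61, 6.61 and 6.59 in MEC and 6.36, 6.35 and 6.41 in LEC. Its MEC pairs lay above all LEC pairs by 0.23 (SE 0.04, adjusted p = 0.00783 by limma), and with the scanner's processed signals by 0.56. Dync1li2, a light intermediate chain, read 7.21, 7.18 and 7.03 in MEC and 6.84, 6.83 and 6.86 in LEC (0.30, SE 0.06, adjusted p = 0.00871 by limma). Under median centring Dync1i1 read 0.01 and Dync1li2 −0.06, and neither passed. The motor chain itself, Dync1h1, read 7.106, 7.126 and 6.986 in MEC and 7.127, 7.150 and 7.200 in LEC, so that the regions lay just apart, but its difference of −0.09 (SE 0.05) did not pass. Dync1i2, the other intermediate chain, read 0.16 (SE 0.06, adjusted p = 0.0796), with −0.29 and a pass in that direction under median centring.

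Dynein light chains gave 10 probes, and their 2 calls fell on the same gene in opposite directions. Dynll2, a small dimer that many proteins bind, was higher in MEC by one probe, with pairs of 6.78, 6.64 and 6.71 against 6.47, 6.52 and 6.42 (0.24, SE 0.05, adjusted p = 0.0133 by limma). By another it was higher in LEC, with 8.72, 8.74 and 8.83 in MEC against 8.98, 8.96 and 8.97 (−0.21, SE 0.05, adjusted p = 0.0151 by limma). The third Dynll2 probe read 0.07 and did not pass. The first of these stood at −0.01 under median centring. The second lost its call without MEC replicate 1 (adjusted p = 0.0505), MEC replicate 2 (adjusted p = 0.0534) or LEC replicate 2 (adjusted p = 0.0507). No direction can be given for Dynll2 from these probes. Dynll1, its close relative, read −0.04 and had the widest LEC spread of the group (SD 0.37, n = 3).

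Dynactin gave 8 probes, with 0 higher in MEC and 1 higher in LEC. Dctn4, a subunit of the pointed end, read 7.20, 7.06 and 7.10 in MEC and 7.25, 7.45 and 7.43 in LEC (−0.26, SE 0.07, adjusted p = 0.0242 by limma), and 0.04 by a second probe near background. It no longer passed without MEC replicate 2 (adjusted p = 0.0847), MEC replicate 3 (adjusted p = 0.0692), LEC replicate 2 (adjusted p = 0.0872) or LEC replicate 3 (adjusted p = 0.0571). Dctn1, the large subunit that grips dynein and the microtubule, read 6.10, 6.28 and 6.18 in MEC and 6.12, 6.19 and 6.32 in LEC, and its difference of −0.03 did not pass. Dctn3 read 0.07 (SE 0.08), and under median centring −0.55 with a pass.

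Probes of the same gene did not always agree. Of the 16 member genes with several analysed probes, 8 had 1 sign of the difference on all of them, and Dynll2 was the single gene called in both directions, to which the scanner's own signals add Kif1b.

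Genes that work on microtubules and motors were taken from lists beside the members. Their counts stand against 11.4% of all probes higher in MEC and 12.9% higher in LEC. Values of these lists are given with quantile normalisation alone. Of 27 probes for microtubule-associated proteins and stathmins, 6 were higher in MEC and 5 higher in LEC, with a median of −0.014. Dclk1, a microtubule-binding kinase, was higher in MEC by 0.55 (SE 0.05) and 0.51 (SE 0.05) with 2 of its 4 probes. Stmn2, a tubulin-binding protein of growing axons, was higher in MEC by 0.73 (SE 0.12), and Stmn4, its relative, lower by 0.52 (−0.52, SE 0.12). Map4, a binding protein found in many cell types, was higher in MEC by 0.39 and 0.37 with 2 probes, while the third, at −0.02, did not pass. Mapt, the axonal protein tau, was lower in MEC with differences of −0.45 (SE 0.12) and −0.21 (SE 0.06).

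Among 30 probes for motor adaptors and regulators, 6 were higher in MEC and 6 higher in LEC. Hap1, an adaptor between huntingtin, dynactin and kinesin, had a level of 7.02 in MEC and 8.08 in LEC, a difference of −1.06 (SE 0.11, adjusted p = 0.000859 by limma). Mapk8ip3, which links kinesin light chains to axonal cargo, read −0.52 (SE 0.04) and passed. Pafah1b1, the dynein regulator Lis1, read 0.39 (SE 0.06) and passed. The kinesin-2 subunit Kifap3 passed in both directions, at 0.38 and −0.31, by different probes.

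The list for plus-end binding and severing also held minus-end and centrosome proteins. Of its 25 probes 0 were higher in MEC and 5 higher in LEC, with a median of −0.039. The 5 were those of Camsap2, Tacc2, Tacc1, Mapre2 and Fign. Camsap2, which guards the minus ends of neuronal microtubules, read −0.58 (SE 0.06), although another probe of it read 0.01. Tacc2, of the centrosome, read −0.45 (SE 0.06) and passed. Tubulin folding and modification gave 21 probes with 2 higher in MEC and 5 higher in LEC. Arl2, a partner of the folding cofactors, read −0.50 (SE 0.09) and Tbca, a cofactor that binds beta tubulin, −0.37 (SE 0.09). Of 8 probes for other intermediate filaments 0 were higher in MEC and 1 higher in LEC, that of Nes (−0.41, SE 0.11), which marks neural progenitors. Ina, a neuronal filament protein that assembles with the neurofilament chains, read 0.11 (SE 0.07) and did not pass.

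The second comparison asked how the members differed between Naglu-/- and Naglu+/- neurons, in MEC, in LEC, over both, and between the regions. No member passed limma in any of the 4 contrasts, and 0% of all probes did. At an unadjusted p under 0.05 there were 0 members in each of the 4 contrasts, and 136, 199, 274 and 71 of all 12987 probes. Each of these 4 counts is below a share of 0.05 of all probes. In the direction used, ratios of replicate 2 correlated at −0.58 to 0.09 with the other MEC pairs and −0.45 to −0.068 with the other LEC pairs. Replicates 1 and 3 correlated at 0.017 in MEC and −0.023 in LEC. With replicate 2 turned as labelled, 0 members passed and 13, 7, 11 and 12 had an unadjusted p under 0.05, as did 1453, 1238, 1522 and 1148 of all probes. Without replicate 2 of both regions 0 members passed, and 6, 3, 6 and 4 had an unadjusted p under 0.05 by limma. Of all probes 444, 491, 797 and 217 did. The counts thus depend on replicate 2, and the cause was not tested. The members' median ratio, mutant over control on the log2 scale, was −0.015 in MEC and −0.013 in LEC, against −0.0045 and 0.0051 over all probes. Turned, the members' medians were 0.041 and −0.0016, and those of all probes 0.034 and 0.0028.

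The signs of the ratios in single pairs were compared with the background as well. In MEC 9 of 65 members had 1 sign in all 3 pairs, or 13.8%, where 14.3% of all probes did. In LEC there were 5, or 7.69%, fewer than the 17.4% of all probes. None of the members had 1 sign in all 6 pairs, against 1.81% of all probes. With replicate 2 turned as labelled the members gave 38.5% in MEC against 36.5%, 27.7% in LEC against 30.2%, and 4.62% in all 6 pairs against 7.48%.

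The neurofilament ratios varied more between pairs than their means departed from 0. Nefl by its first probe read −0.08, −0.74 and 0.44 in the MEC pairs 1 to 3 and 0.07, 0.35 and −0.23 in the LEC pairs. Its signs were mixed in both regions, and the means were −0.13 (SD 0.59, n = 3) and 0.06 (SD 0.29, n = 3). The second Nefl probe averaged −0.03 in MEC and 0.15 in LEC. Nefh by its first probe read 0.52, −0.53 and 0.39 in MEC and −0.13, 0.08 and −0.05 in LEC. In MEC, pair 2 ran against the other two for Nefh and the first Nefl probe lay lowest there. With that pair turned as labelled, Nefh averaged 0.48 and Nefl 0.36 and 0.22 in MEC, without a pass. Nefm stayed between −0.09 and 0.06 in all 6 pairs.

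Among tubulins, Tubb2b had all 3 MEC pairs below 0 at −0.34, −0.25 and −0.17 (mean −0.25, SE 0.16, unadjusted p = 0.151 by limma). In LEC its pairs were −0.32, 0.52 and −0.27, and turned the MEC mean was −0.09. The first Tubb2a probe read −0.38, 0.30 and −0.43 in MEC and −0.08, −0.13 and −0.11 in LEC, so that all 3 LEC pairs were below 0 and the MEC pairs were mixed. Averaged over the regions it read −0.14 (SE 0.10), −0.19 turned, and −0.25 without replicate 2, none of which passed. The second Tubb2a probe averaged −0.04. Tuba1a averaged −0.10 in MEC and −0.20 in LEC, and Tubb3 −0.09 and −0.06. The median over the 7 beta tubulin probes was −0.06 over both regions, and 0.03 with replicate 2 turned, so that its sign depends on that pair.

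Among the motors, the smallest unadjusted p in MEC belonged to Dynll2 by the probe that was higher in LEC. Its ratios were −0.10, −0.33 and −0.16 (mean −0.20, SE 0.08, unadjusted p = 0.05 by limma), and 0.02 with replicate 2 turned. Kif1a by its probe near background read 0.24, 0.09 and 0.11 in MEC (mean 0.14, SE 0.07, turned 0.09), all above 0, but in LEC 0.10, −0.07 and −0.08. Kif5c read 0.36, −0.17 and 0.65 in MEC and 0.04, 0.16 and −0.61 in LEC. Its means of 0.28 and −0.14 gave a difference between the regions of 0.42 (SE 0.27, unadjusted p = 0.16 by limma), 0.64 turned, and neither passed. Kif5a averaged −0.06 and −0.09, and Kif5b 0.11 and 0.12 with pairs from −0.59 to 0.82. The conventional kinesins thus showed pair-to-pair spreads wider than their means.

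In LEC the smallest unadjusted p was that of Dynlrb2, a light chain of dynein, at −0.15 (SE 0.08, unadjusted p = 0.082 by limma), with −0.14 turned. Its LEC pairs were −0.33, −0.02 and −0.11, all below 0, and its MEC pairs 0.01, −0.03 and 0.08. Kif2a read 0.26, −0.15 and 0.45 in LEC (mean 0.19, SE 0.12) and 0.28 turned. Tuba1c, an alpha tubulin, read 0.27, 0.25 and −0.03 in LEC and −0.06, −0.02 and −0.33 in MEC. The difference between the regions of −0.30 (SE 0.13, unadjusted p = 0.051 by limma) was −0.12 turned. Dync1h1 averaged −0.06 in MEC and 0.09 in LEC, Dync1i1 −0.09 and 0.03, and Dctn1 0.09 and 0.02. Of dynactin, Dctn2 averaged 0.12 in MEC and 0.02 in LEC, and Dctn6 −0.14 and −0.05.

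The partner lists also held 0 calls in the mutant comparisons. Their medians over both regions were −0.019 for microtubule-associated proteins and stathmins, 0.0025 for plus-end binding and severing, −0.0057 for tubulin folding, 0.0048 for motor adaptors and 0.055 for other intermediate filaments. Among markers of other cells, the median mutant ratio over both regions was 0.096 for 12 microglial probes and 0.030 for 11 astrocyte probes, and 0 of these passed. The largest microglial ratios were those of Lyz2, a lysozyme, at 1.78, Ctss, a lysosomal protease, at 0.81 and Trem2, a microglial receptor, at 0.39 (unadjusted p = 7.6e-06, 0.000532 and 0.000561 by limma). A single sign in all 6 pairs was seen for 5 of the 12 microglial probes, against 1.81% of all probes. The median of this list in replicate 2 was 0.154 in MEC and 0.142 in LEC, and the other 4 pairs lay between 0.021 and 0.157. With that replicate turned, the list's medians of the 3-pair means were 0.051 in MEC and −0.016 in LEC. The part of microglia in the members' ratios was not tested.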

How the data were processed

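Each of 12 two-colour arrays carried Naglu-/- and Naglu+/- RNA of 1 region, MEC or LEC. The deposited scanner files hold, per the file headers, mean and local background intensity of each spot from Agilent Feature Extraction 9.5.1.1 (8.5.1.1 per the submitters' processing notes). They also hold processed intensity values, a log10 ratio and flags made by the authors' scanner software. The authors also deposited their own ratios on the log2 scale, in a value table. Its normalisation is not given in the sources used here, and it served to settle which array belongs to which sample.

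Intensities were corrected with normexp (offset 50), loess-normalised within arrays and quantile-normalised between arrays in limma 3.58.1 (R 4.3.3). Spots flagged as non-uniform and control spots were left out, and dye-swapped arrays were averaged to 1 value a pair. Levels average both dyes. The test took the 12987 probes that at least 4 of the 6 readings in 1 region and genotype put well above background, and Benjamini-Hochberg adjustment ran over all of them. Pairs share no animals within a region as far as the labels say, and n counts pairs. The number of arrays limits the precision.

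Gene names are those of the array, updated through RefSeq (GRCm38.p6), by accession for 113 of the 148 member probes, and probe positions are mm8 as in the files. Probe sequences were not used here, and no annotation of mm8 was used. The members and gene lists were chosen with earlier results of these data known. Genes named are all that passed for level, fixed marker genes of each family, the smallest p on each side of 0 in each mutant contrast, and up to 6 passing genes a partner list. The fits were tested on simulated data. Alternatives were another background correction, other scaling, filters, 1 probe per gene, single channels, a replicate block, omitted pairs, and other array assignments and directions. Same-numbered pairs of MEC and LEC did not deviate together, which does not show whether they share animals.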

Additional observations from a re-analysis of the deposited data

Results flagged for a closer look

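In the mutant ratios over the 6 pairs, 29 named probes were looked at for a pair that stands apart from the others, and 2 showed one. Chance flags about 1 in 20 groups. Tubb2b read 0.52 in LEC replicate 2, where the other 5 pairs lay between −0.34 and −0.17. Dctn1 read −0.0820 in LEC replicate 2, where the other 5 pairs lay between 0.05 and 0.12. Turned as labelled, LEC replicate 2 read in the direction of LEC replicates 1 and 3 for both probes. That setting also turns MEC replicate 2, which then read against MEC replicates 1 and 3 for both probes. The direction of this pair is not settled, and its part in the 2 values was not tested.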

How the results depend on the processing

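Of the level calls, 19 as reported became 42 with median centring, 6 with the control channel alone, 5 with the mutant channel alone, and 11 to 18 with 1 pair left out, the lowest without LEC replicate 2. Calls higher in MEC, 11 as reported, became 5 with median centring, 3 and 4 with the control and mutant channel alone, 7 with Cy3 alone (chosen after seeing the data), and 8 to 11 with 1 pair left out. Calls higher in LEC, 8 as reported, became 37, 3 and 1 in the first 3 of these settings, and 3 to 7 with 1 pair left out. Median centring turned the sign of Kif5a (−0.57), Kif5c (−0.52), Dctn3 (−0.55), Dync1i2 (−0.29), Kif22 (−0.27), Tuba4a (−0.27), Tubgcp3 (−0.16), Dync1li2 (−0.0596), 1 Dynll2 probe (−0.0129) and Tubb3 (−0.0066). Of these, Kif5a, Kif5c, Dctn3, Dync1i2, Kif22 and Tubgcp3 passed in LEC's favour. Kif5b (−0.36) and 1 Kif1a probe (−0.11) also turned, without a pass in either setting. The cause was not tested. Over all named probes and settings, 487 level values kept direction and side of the threshold, 72 lost their pass, 18 gained one and 13 uncalled values moved by more than 1 SD. In the mutant comparisons the count of members stayed at 0 in all settings run, and that of all probes too, except for 1 probe in MEC and 1 over both regions without LEC replicate 2. The replicate block gave 18 level calls, without Klc3 (adjusted p = 0.0731) and Dctn4 (adjusted p = 0.0531) and with Tuba1a (adjusted p = 0.0423), and 0 mutant calls. Same-numbered pairs of the regions correlated at −0.06 to 0.01 in level and −0.35 to −0.0041 in ratio. With replicate 2 turned as labelled, the ratios correlated at −0.35 to 0.08. These values do not show whether such pairs share animals. A block for scan day or slide was not run, since each scan day holds 1 region and each slide 1 array. Signal over background limits Nefm, the second Nefh probe, Kif3c and most kinesins.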
